A study of Homo sapiens with 4 samples.

Results

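Besides its miRNA probes, the Exiqon miRNA array carried probes for longer small RNAs of the nucleus and the nucleolus. They were taken as every probe whose name held SNORD, RNU, U6 or 5SrRNA, which gave 30 of the 2680 probe IDs. They stand for 22 RNA species. There were 7 probes for 3 spliceosomal snRNAs (U1, U5 and U6), 1 probe for 5S rRNA, 4 probes for the snoRNAs U3, U8, U13 and U14, and 18 probes for 14 other box C/D snoRNAs. The question was whether these RNAs went with the miRNAs or with the spike-in controls, which are synthetic RNAs added to the sample, when 1 array was set against another.

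The 4 samples were stable transfectants of HT-29 and LS174T, which are established human colonic adenocarcinoma lines. The shRNA-Ascl2 transfectants of both lines carried the pGenesil-1.1 plasmid with a single shRNA against Ascl2, a transcription factor of intestinal stem cells. The shRNA-Ctr transfectants carried the same plasmid without an insert, so every ratio of the vectors also sets a plasmid with an insert against one without. All plasmids also carried EGFP, and all cells were kept in G418, at 0.4 mg/ml for HT-29 and at 0.2 mg/ml for LS174T transfectants. Which stable clone was hybridised is not given in the sources used here. Each transfectant had 1 array with 1 dye (Hy3), so no difference between 2 arrays has a replicate check. Every SD below is over the 4 spots of a probe on 1 array, which is a technical error only.

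The snRNAs U1, U5 and U6 are RNA components of the spliceosome, and 5S rRNA is a structural RNA of the large ribosomal subunit. Box C/D snoRNAs work in the nucleolus as ribonucleoproteins. Most of them guide ribose methylation of ribosomal RNA and are cut out of introns of host genes, while U3, U8, U13 and U14 take part in the processing or modification of the ribosomal RNA precursor. U6, SNORD44 and SNORD48 are in wide use as reference RNAs for miRNA quantification by PCR.

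Intensities are foreground minus local background in arbitrary units, averaged over spots. Of the 30 probes, 26 were above 50 on all 4 arrays, with 81 as the lowest value, and 4 were above 50 on none, with 43 as the highest. Before a ratio was taken, each of the arrays compared was scaled on its median miRNA intensity, from miRNA probes that both arrays measured above 50. A ratio was called when it was 2 or more, or 0.5 or less, with the brighter array above 50. The miRNA list of colonic epithelium (miR-200a, miR-200b, miR-200c, miR-141, miR-429, miR-192, miR-194 and miR-215) had 7 or 8 of 8 probes above 50 on every array. Of 4 miRNAs of stroma and muscle, miR-145 and miR-1 were at 5.5 or less on all 4 arrays. The others, miR-143 (50.5) and miR-133a (51.5), passed 50 on the shRNA-Ctr/LS174T array only, so 2 of 4 were above 50 there and 0 of 4 elsewhere. The endothelial miR-126 was at 95.5 in shRNA-Ascl2/HT-29 and 87.5 in shRNA-Ctr/HT-29 cells. It was at -0.75 in shRNA-Ascl2/LS174T and -11.25 in shRNA-Ctr/LS174T cells. The 7 negative control probes had medians of -12 to 3.5.

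The shRNA-Ctr/LS174T array stood apart before any ratio was taken. Over the 26 probes, its log2 intensities had a Pearson r of 0.65 to 0.70 with the other arrays, while the other arrays had 0.97 to 0.98 with each other, as a description over probes that share their arrays. Without this array, 2 comparisons are left, which are shRNA-Ascl2 against shRNA-Ctr in HT-29 and HT-29 against LS174T in shRNA-Ascl2 cells. Both comparisons that use it are given with this in view. On this array the 40 measured spike-in controls were lowest of the 4 arrays in 38 cases. Among the miRNA probes above 50 on all 4 arrays, it was lowest for 162 of 471 (34.4%) and highest for 212 (45.0%).

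The small RNAs divided by class on that array. In RNA from whole cultures, fewer cells with an RNA and less of it per cell cannot be told apart. The snRNA, 5S rRNA and U3 probes (9 probes) were highest in shRNA-Ctr/LS174T cells in 8 cases, RNU1A-3p being the exception. The other snoRNA probes above 50 (17 probes) were lowest there in 13 cases and highest in 2. The grouping of U3 with the snRNAs and 5S rRNA was made after its values were seen.

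**Figure D1:**
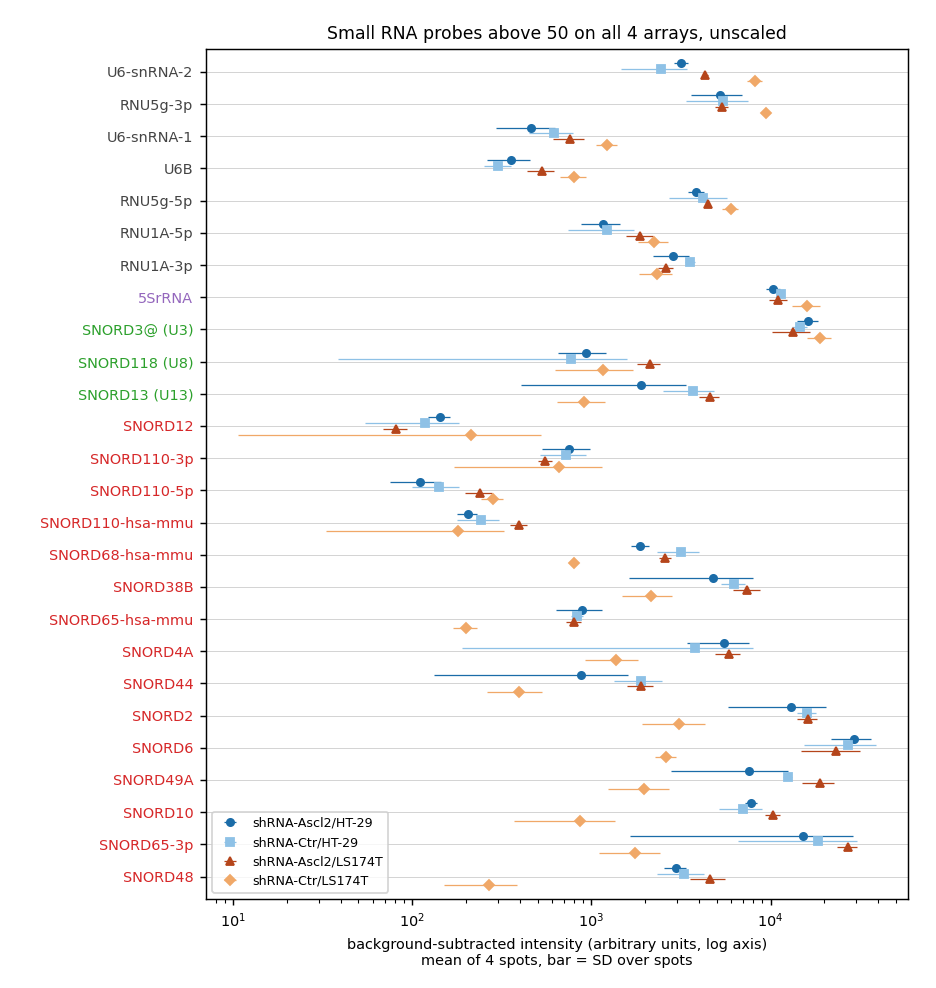
Background-subtracted intensity (arbitrary units, log axis) of the 26 probes above 50 on all 4 arrays, unscaled, as the mean of 4 spots with bars for the SD over spots (shortened on the left where the SD exceeds the mean). Names are coloured by class (grey snRNAs, purple 5S rRNA, green U3, U8 and U13, red other snoRNAs). The shRNA-Ctr/LS174T points lie to the right for 8 of the 9 snRNA, 5S rRNA and U3 probes and far to the left for most red ones.

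The U6 probes read highest in shRNA-Ctr/LS174T cells. U6-snRNA-1 had 460 ± 167 in shRNA-Ascl2/HT-29 and 617 ± 169 in shRNA-Ctr/HT-29 cells, and 756.5 ± 149 in shRNA-Ascl2/LS174T and 1224 ± 170 in shRNA-Ctr/LS174T cells. U6-snRNA-2 had 3180 ± 301 in shRNA-Ascl2/HT-29 and 2444.5 ± 986 in shRNA-Ctr/HT-29 cells, and 4319 ± 151 in shRNA-Ascl2/LS174T and 8218 ± 783 in shRNA-Ctr/LS174T cells. All 3 probes for U6, the catalytic snRNA of the spliceosome, thus ran the same way in LS174T. U6B had 357 ± 94.3 in shRNA-Ascl2/HT-29 and 301.5 ± 51.9 in shRNA-Ctr/HT-29 cells, and 527.5 ± 88.3 in shRNA-Ascl2/LS174T and 801.5 ± 132 in shRNA-Ctr/LS174T cells. After miRNA scaling, the ratio of shRNA-Ascl2 over shRNA-Ctr in LS174T was 0.600, 0.511 and 0.639 for the 3 probes, and none was called. In HT-29 it was 0.815, 1.42 and 1.295, so the probes for U6 were on both sides of 1 there.

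U1 recognises the upstream splice site, and U5 holds the exons during splicing. RNU1A-3p had 2861 ± 642 in shRNA-Ascl2/HT-29 and 3553 ± 210 in shRNA-Ctr/HT-29 cells, and 2615 ± 249 in shRNA-Ascl2/LS174T and 2329 ± 482 in shRNA-Ctr/LS174T cells. RNU1A-5p had 1157.5 ± 279 in shRNA-Ascl2/HT-29 and 1229 ± 492 in shRNA-Ctr/HT-29 cells, and 1876 ± 319 in shRNA-Ascl2/LS174T and 2245 ± 426 in shRNA-Ctr/LS174T cells. The probes for U1 disagreed in LS174T, at a ratio of 1.09 for RNU1A-3p and 0.812 for RNU1A-5p, and the unscaled spots of the 2 arrays overlapped for each. RNU5g-3p had 5253 ± 1637 in shRNA-Ascl2/HT-29 and 5433 ± 2067 in shRNA-Ctr/HT-29 cells, and 5326.5 ± 433 in shRNA-Ascl2/LS174T and 9386.5 ± 593 in shRNA-Ctr/LS174T cells. RNU5g-5p had 3848 ± 397 in shRNA-Ascl2/HT-29 and 4212.5 ± 1518 in shRNA-Ctr/HT-29 cells, and 4470 ± 55.5 in shRNA-Ascl2/LS174T and 6001.5 ± 621 in shRNA-Ctr/LS174T cells. Both U5 probes were below 1 in LS174T, at 0.551 and 0.724, and the unscaled spots of the 2 arrays did not overlap. In HT-29 they were at 1.06 and 0.999.

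The 5S rRNA probe had 10344 ± 904 in shRNA-Ascl2/HT-29 and 11389 ± 327 in shRNA-Ctr/HT-29 cells, and 11048.5 ± 1231 in shRNA-Ascl2/LS174T and 15992 ± 2833 in shRNA-Ctr/LS174T cells. Its ratio was 0.994 in HT-29 and 0.671 in LS174T. U3, which directs early cleavages of the ribosomal RNA precursor, was measured by the SNORD3@ probe. It had 16169.5 ± 2176 in shRNA-Ascl2/HT-29 and 14611 ± 1446 in shRNA-Ctr/HT-29 cells, and 13411 ± 3186 in shRNA-Ascl2/LS174T and 18940 ± 2958 in shRNA-Ctr/LS174T cells. The ratio was 1.21 in HT-29 and 0.688 in LS174T, which is the side of the snRNAs and not of most other snoRNAs. The unscaled spots of the 2 LS174T arrays overlapped for U3, up to 15821 in shRNA-Ascl2 and down to 15587 in shRNA-Ctr cells. They also overlapped for 5S rRNA, at 12313 against 12231.

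Of the other 3 snoRNAs of ribosomal RNA processing, U13 was called in LS174T, U8 was not and U14 could not be measured. U8, needed for maturation of the large-subunit ribosomal RNAs, was measured by SNORD118. It had 929 ± 277 in shRNA-Ascl2/HT-29 and 771.5 ± 811 in shRNA-Ctr/HT-29 cells, and 2110.5 ± 310 in shRNA-Ascl2/LS174T and 1163 ± 539 in shRNA-Ctr/LS174T cells, for a ratio of 1.76 in LS174T that was not called. U13, which guides acetylation of the small-subunit ribosomal RNA, was measured by SNORD13. It had 1879 ± 1475 in shRNA-Ascl2/HT-29 and 3674.5 ± 1154 in shRNA-Ctr/HT-29 cells, and 4582 ± 586 in shRNA-Ascl2/LS174T and 914 ± 272 in shRNA-Ctr/LS174T cells. Its ratio was 4.87 in LS174T, called higher, and 0.560 in HT-29, not called. U14 (SNORD14B) had 41.75 ± 16.0 in shRNA-Ascl2/HT-29 and 43 ± 15.4 in shRNA-Ctr/HT-29 cells, and 42.5 ± 10.8 in shRNA-Ascl2/LS174T and 21 ± 11.7 in shRNA-Ctr/LS174T cells. It was under 50 on every array, so no ratio was taken.

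In LS174T, 13 of the 26 measured small RNA probes were called higher in shRNA-Ascl2 cells, where 27.6% of the 695 miRNA and small RNA probes tested were, and 1 was called lower, where 26.8% were. All 13 were snoRNAs other than U3. The split was 13 higher and 5 lower after quantile normalization, and 12 higher and 5 lower with scaling on miRNA probes above 1000. The share over all probes was not taken at these settings. The 9 snRNA, 5S rRNA and U3 probes had a median ratio of 0.671 (range 0.511 to 1.09) and the 17 others had one of 4.13 (range 0.371 to 16.6). The 507 miRNA probes measured on both arrays had a median ratio of 0.816, with a range of 0.106 to 32.7. It is not 1 because the factor is a ratio of medians. The 40 spike-in controls had a median of 8.60.

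The largest ratios belonged to SNORD48 and SNORD65-3p. SNORD48, which guides methylation of the large-subunit ribosomal RNA, had 2965 ± 419 in shRNA-Ascl2/HT-29 and 3284.5 ± 950 in shRNA-Ctr/HT-29 cells, and 4574.5 ± 1029 in shRNA-Ascl2/LS174T and 268 ± 117 in shRNA-Ctr/LS174T cells. Its ratio was 16.6 in LS174T and 0.988 in HT-29. The shRNA-Ctr/LS174T cells alone were low, and the other 3 arrays lay close together. SNORD65-3p had 15276 ± 13627 in shRNA-Ascl2/HT-29 and 18523 ± 11956.5 in shRNA-Ctr/HT-29 cells, and 26983.5 ± 3460 in shRNA-Ascl2/LS174T and 1760 ± 654 in shRNA-Ctr/LS174T cells, for a ratio of 14.9 in LS174T. SNORD65 guides methylation of the small-subunit ribosomal RNA, and its 3 probes disagreed in size. SNORD65-hsa-mmu had 886.5 ± 252 in shRNA-Ascl2/HT-29 and 833 ± 66.7 in shRNA-Ctr/HT-29 cells, and 802 ± 77.4 in shRNA-Ascl2/LS174T and 199 ± 31.6 in shRNA-Ctr/LS174T cells, for a ratio of 3.91. SNORD65-5p was at background on every array, at 6.25 to 11.

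SNORD6, SNORD10, SNORD49A and SNORD2 were bright in 3 samples and low in shRNA-Ctr/LS174T cells. SNORD6, the brightest probe of the group on the HT-29 arrays, had 29093 ± 7201 in shRNA-Ascl2/HT-29 and 27097 ± 11720 in shRNA-Ctr/HT-29 cells, and 23212 ± 8432 in shRNA-Ascl2/LS174T and 2610 ± 359 in shRNA-Ctr/LS174T cells. SNORD10 had 7807 ± 618 in shRNA-Ascl2/HT-29 and 7039 ± 1916 in shRNA-Ctr/HT-29 cells, and 10283 ± 952 in shRNA-Ascl2/LS174T and 862.5 ± 494 in shRNA-Ctr/LS174T cells. The LS174T ratios were 8.64 for SNORD6 and 11.6 for SNORD10, while both stayed at 1.17 and 1.21 in HT-29. SNORD49A, a guide for the large-subunit ribosomal RNA, had 7608 ± 4836 in shRNA-Ascl2/HT-29 and 12442 ± 725 in shRNA-Ctr/HT-29 cells, and 18862 ± 3853 in shRNA-Ascl2/LS174T and 1970 ± 725 in shRNA-Ctr/LS174T cells. SNORD2, also a guide for the large subunit, had 13061 ± 7303 in shRNA-Ascl2/HT-29 and 16077 ± 1956 in shRNA-Ctr/HT-29 cells, and 16106 ± 2139 in shRNA-Ascl2/LS174T and 3101 ± 1179 in shRNA-Ctr/LS174T cells. Their ratios were 9.30 and 5.05 in LS174T, and 0.669 and 0.889 in HT-29.

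SNORD44, SNORD4A, SNORD38B and SNORD68 made up a middle range in LS174T, at ratios of 4.66, 4.13, 3.35 and 3.13. SNORD44, a guide for the small-subunit ribosomal RNA, had 869 ± 736 in shRNA-Ascl2/HT-29 and 1902 ± 574 in shRNA-Ctr/HT-29 cells, and 1895 ± 306 in shRNA-Ascl2/LS174T and 395 ± 135 in shRNA-Ctr/LS174T cells. SNORD4A, likewise a guide for the small subunit, had 5479 ± 2075 in shRNA-Ascl2/HT-29 and 3784 ± 4185 in shRNA-Ctr/HT-29 cells, and 5829 ± 920 in shRNA-Ascl2/LS174T and 1371 ± 456 in shRNA-Ctr/LS174T cells. Of these, SNORD44 was low on both the shRNA-Ascl2/HT-29 and the shRNA-Ctr/LS174T array. SNORD38B, a guide for the large subunit, had 4776 ± 3162 in shRNA-Ascl2/HT-29 and 6249.5 ± 946 in shRNA-Ctr/HT-29 cells, and 7413.5 ± 1266 in shRNA-Ascl2/LS174T and 2148.5 ± 674 in shRNA-Ctr/LS174T cells. SNORD68-hsa-mmu had 1877 ± 209 in shRNA-Ascl2/HT-29 and 3144 ± 835 in shRNA-Ctr/HT-29 cells, and 2578 ± 195 in shRNA-Ascl2/LS174T and 800 ± 15.8 in shRNA-Ctr/LS174T cells. In LS174T the spots of the 2 arrays did not overlap for any of these 4 probes.

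SNORD110 and SNORD12 departed from the rest of their class. SNORD110-3p had 753 ± 226 in shRNA-Ascl2/HT-29 and 725 ± 209 in shRNA-Ctr/HT-29 cells, and 552 ± 49.1 in shRNA-Ascl2/LS174T and 659 ± 488 in shRNA-Ctr/LS174T cells. SNORD110-5p had 110 ± 34.5 in shRNA-Ascl2/HT-29 and 140.5 ± 40.7 in shRNA-Ctr/HT-29 cells, and 237 ± 41.1 in shRNA-Ascl2/LS174T and 281.5 ± 40.4 in shRNA-Ctr/LS174T cells. Their LS174T ratios of 0.814 and 0.819 were close to the miRNA median. SNORD110-3p, however, was at 0.523 in blocks 1 to 18 and 1.97 in blocks 19 to 36, on both sides of 1. SNORD110-5p was at 0.882 and 0.696 over these ranges. The remaining probe for this guide of the small subunit was called higher, at 2.13 (1.44 in blocks 1 to 18 and 5.11 in blocks 19 to 36). SNORD110-hsa-mmu had 204 ± 26.1 in shRNA-Ascl2/HT-29 and 241.5 ± 64.3 in shRNA-Ctr/HT-29 cells, and 393 ± 41.2 in shRNA-Ascl2/LS174T and 179.5 ± 146 in shRNA-Ctr/LS174T cells. SNORD12 had 142 ± 19.9 in shRNA-Ascl2/HT-29 and 118 ± 63.3 in shRNA-Ctr/HT-29 cells, and 81 ± 12.2 in shRNA-Ascl2/LS174T and 212 ± 310 in shRNA-Ctr/LS174T cells. It was the 1 probe called lower in LS174T, at 0.371, and its shRNA-Ctr/LS174T mean rested on 1 spot of 677 beside spots of 66, 72 and 33. By block range its ratio was 0.225 (blocks 1 to 18, with that spot) and 1.299 (blocks 19 to 36), so it was not called in blocks 19 to 36. SNORD66 and SNORD15A were at background on all 4 arrays, between -10.25 and 5.75.

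**Figure D2:**
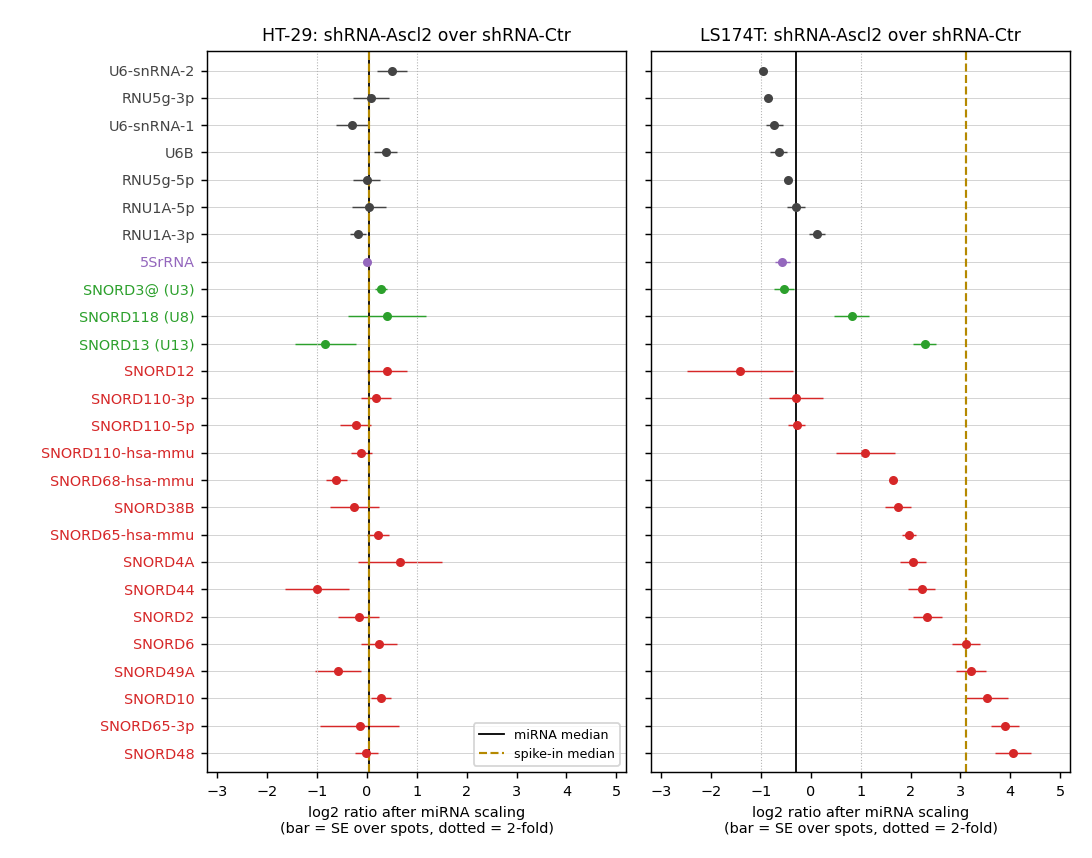
Log2 ratio of shRNA-Ascl2 over shRNA-Ctr (miRNA scaling) for each small RNA probe in HT-29 (left) and LS174T (right), with bars for the SE over spots and names coloured by class as in the plot of intensities. Solid and dashed lines are the medians of the miRNA probes and of the spike-in controls, which coincide in HT-29 and lie at -0.29 and 3.10 in LS174T.

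To ask which controls the small RNAs went with, each LS174T ratio was placed between the miRNA median (position 0) and the spike-in median (position 1) on the log2 scale. The medians were 10.5-fold apart. The median of the 26 probes lay at 0.367, with 14 probes nearer the miRNA median and 12 nearer the spike-in median. Of all 533 miRNA and small RNA probes placed this way, 21.6% were nearer the spike-in median. The classes did not share a place. The 9 snRNA, 5S rRNA and U3 probes lay at -0.20 to 0.12 and were all nearer the miRNA median. They stand for U1, U5, U6, 5S rRNA and U3 only, and U3 was placed with them after its values were seen. Within the snoRNAs of ribosomal RNA processing, U3 lay at -0.07, U8 at 0.33 and U13 at 0.76. Of the 17 other snoRNA probes, 12 were nearer the spike-in median, and their median was 0.689. SNORD48, SNORD65-3p, SNORD10, SNORD49A and SNORD6 lay at or past the spike-in median, at 1.28, 1.23, 1.13, 1.03 and 1.00. These positions are over all 4 spots. By block range (1 to 18, then 19 to 36), the ratio was 11.1 and 25.2 for SNORD48. It was 8.24 and 18.7 for SNORD10, and 6.31 and 10.1 for SNORD6. The 5 nearer the miRNA median were SNORD118, SNORD12 and the 3 SNORD110 probes. SNORD68-hsa-mmu (0.571) and SNORD110-hsa-mmu (0.407) lay nearest to the midpoint of 0.5.

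**Figure D3:**
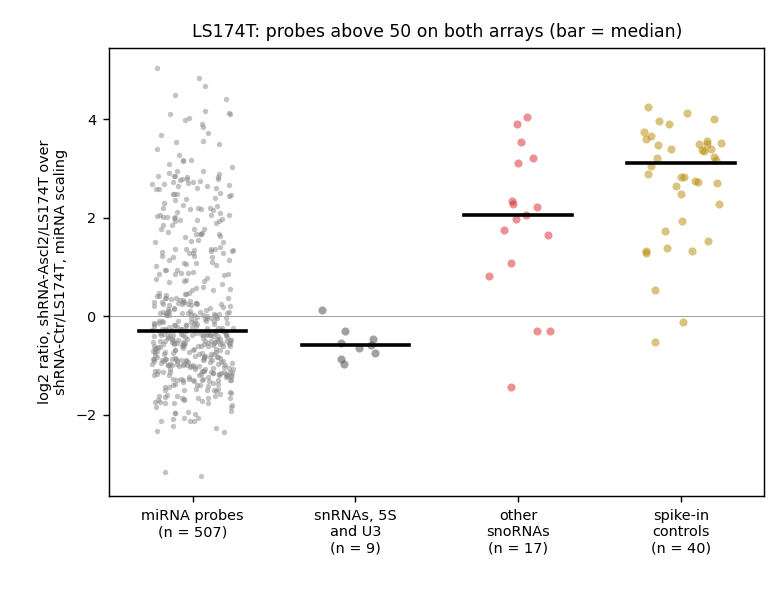
Log2 ratio of shRNA-Ascl2/LS174T over shRNA-Ctr/LS174T (miRNA scaling) for probes above 50 on both arrays, with each point a probe and each bar a median. The snRNA, 5S rRNA and U3 probes fall within the bulk of the miRNA probes, and the other snoRNAs spread from there to the range of the spike-in controls.

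With the spike-in controls in place of the miRNAs as the scale, every LS174T ratio was divided by the same factor, so the counts moved for all probes alike and the order of the probes could not change. Then 0 small RNA probes were called higher (3.6% of all probes tested) and 18 were called lower (83.6%). All 9 snRNA, 5S rRNA and U3 probes were among those lower, at ratios of 0.0594 to 0.127, and so were 9 of the other 17, whose median was 0.481. The direction of a ratio in LS174T is thus relative to the scale chosen. The gap between the class medians was present in both block ranges of the array. In blocks 1 to 18 the medians were 0.732 for the snRNA, 5S rRNA and U3 probes and 4.45 for the other snoRNAs, and in blocks 19 to 36 they were 0.532 and 4.82. The 4 landmark controls, spike-ins with 76 spots each, had a median ratio of 2.49 and so differed from the other spike-in controls, which had 9.33.

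Other RNAs moved with this array too. The summed intensity of the 8 epithelial miRNAs was 161222 in shRNA-Ascl2/LS174T and 22139 in shRNA-Ctr/LS174T cells, against 176055 in shRNA-Ascl2/HT-29 and 207062 in shRNA-Ctr/HT-29 cells. The summed intensity of the 4 blood cell miRNAs (miR-451, miR-144, miR-223 and miR-142-3p) was 309 in shRNA-Ascl2/LS174T and 751 in shRNA-Ctr/LS174T cells, and 1492 in shRNA-Ascl2/HT-29 and 1022.5 in shRNA-Ctr/HT-29 cells. Within LS174T, all members of that list but miR-142-3p were higher on the shRNA-Ctr array. miR-451 was at 334 on the shRNA-Ctr/LS174T array against 50 on the shRNA-Ascl2/LS174T array. In the same order, miR-144 was at 255.5 against 19 and miR-223 at 64.25 against 29.5. Only miR-142-3p ran the other way, at 97.25 against 210.25. On the shRNA-Ctr/LS174T array 4 of 4 were above 50, and on each other array 1 of 4 was. In HT-29, miR-142-3p made up most of the sum, at 1436.75 in shRNA-Ascl2/HT-29 and 965.5 in shRNA-Ctr/HT-29 cells. The part of these in the class difference was not tested. The spot background had a median of 52 on the shRNA-Ascl2/LS174T array and 64 on the shRNA-Ctr/LS174T array, and no spot of these probes was above 65000.

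In HT-29 the miRNA and spike-in medians were 1.00-fold apart, so no position between them could be given, and the small RNAs lay close to both. The median ratio of the 26 probes was 0.996. None was called higher, where 4.44% of 653 probes were, and 1 was called lower, where 8.27% were. On the spike-in scale it was again 0 higher (3.52%) and 1 lower (8.73%). The snRNA probes had a median of 1.03 and a range of 0.815 to 1.42. The other box C/D snoRNAs (15 probes) had one of 0.925 and a range of 0.4999 to 1.58. The highest was SNORD4A, whose shRNA-Ctr/HT-29 spots were 7029 and 7768 in block 13 and 181 and 157 in block 31.

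The probe called lower was SNORD44, at 0.499903, the unrounded value being given since it passed the threshold of 0.5 so narrowly. SNORD13, at 0.560, lay just outside. Both were spotted in blocks 18 and 36, and their shRNA-Ascl2/HT-29 spots differed by block. SNORD44 had spots of 1635 and 1360 in block 18 and 303 and 178 in block 36 in shRNA-Ascl2/HT-29 cells, against 2582 and 2154 in block 18 and 1321 and 1550 in block 36 in shRNA-Ctr/HT-29 cells. Its ratio was below 1 in both block ranges, at 0.585 (blocks 1 to 18, not called) and 0.206 (blocks 19 to 36). It was not called after correction by the landmark controls of each block (0.683), and no small RNA was called with normexp or with scaling on miRNA probes above 1000.

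Between the lines, the members were compared as HT-29 over LS174T within each vector. In shRNA-Ascl2 cells, which leave out the array that stood apart, none of the 26 probes was called higher in HT-29, where 11.5% of 671 probes were, and 6 were called lower, where 15.9% were. The median ratio was 0.684, with a range of 0.377 to 1.64, against 1.06 for the miRNA probes and 0.998 for the spike-in controls. The 6 were SNORD49A (0.377), SNORD13 (0.383), SNORD118 (0.411), SNORD44 (0.428), SNORD110-5p (0.432) and SNORD110-hsa-mmu (0.485). In blocks 1 to 18, SNORD13 was at 0.517 and SNORD44 at 0.598, neither called, and over blocks 19 to 36, which hold the dim shRNA-Ascl2/HT-29 spots, they were at 0.165 and 0.156. SNORD110-5p and SNORD110-hsa-mmu were not called over blocks 19 to 36, at 0.540 and 0.527. On the spike-in scale the counts were again 0 higher (11.8%) and 6 lower (15.9%). The highest ratio was that of SNORD12, at 1.64, and U3 was at 1.13.

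SNORD110 again had probes on both sides, since SNORD110-3p was at 1.27 (0.892 in blocks 1 to 18 and 1.80 in blocks 19 to 36). The 3 U6 probes were all lower in HT-29, at 0.568, 0.688 and 0.632, and RNU1A-3p was at 1.02. Of the 26 probes, 20 had a ratio below 1, beside 226 of 504 miRNA probes and 24 of 47 spike-in controls.

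In shRNA-Ctr cells, where LS174T is the array that stood apart, 12 probes were called higher in HT-29 (29.3% of 707 probes) and 6 lower (30.1%). The 12 were SNORD13 and 11 probes of other box C/D snoRNAs, from 2.42 for SNORD4A to 10.7 for SNORD48. SNORD4A differed by block range, at 3.75 (blocks 1 to 18) and 0.128 (blocks 19 to 36). The 6 were the 3 U6 probes, at 0.442 for U6-snRNA-1, 0.261 for U6-snRNA-2 and 0.330 for U6B, together with RNU1A-5p, SNORD110-5p and SNORD12. SNORD12 was at 0.158 (blocks 1 to 18) and 2.41 (blocks 19 to 36), and RNU1A-5p was not called over blocks 1 to 18, at 0.574. The split was 10 higher and 9 lower after quantile normalization, 10 higher and 11 lower with scaling on miRNA probes above 1000, and 12 higher and 3 lower with normexp. No share over all probes was taken for these splits. The medians of the miRNA probes and the spike-in controls were 9.34-fold apart, and the small RNA median lay at 0.221 between them, with 12 of 26 nearer the spike-in median, where 25% of 543 probes were. On the spike-in scale 0 were called higher (6.79%) and 18 lower (78.5%). This comparison and the one between the vectors in LS174T use the same shRNA-Ctr/LS174T array, so they are not independent of each other. SNORD48, for example, was at 16.6 in one and 10.7 in the other, but at 0.988 for the vectors in HT-29 and 0.605 for the lines in shRNA-Ascl2 cells.

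**Figure D4:**
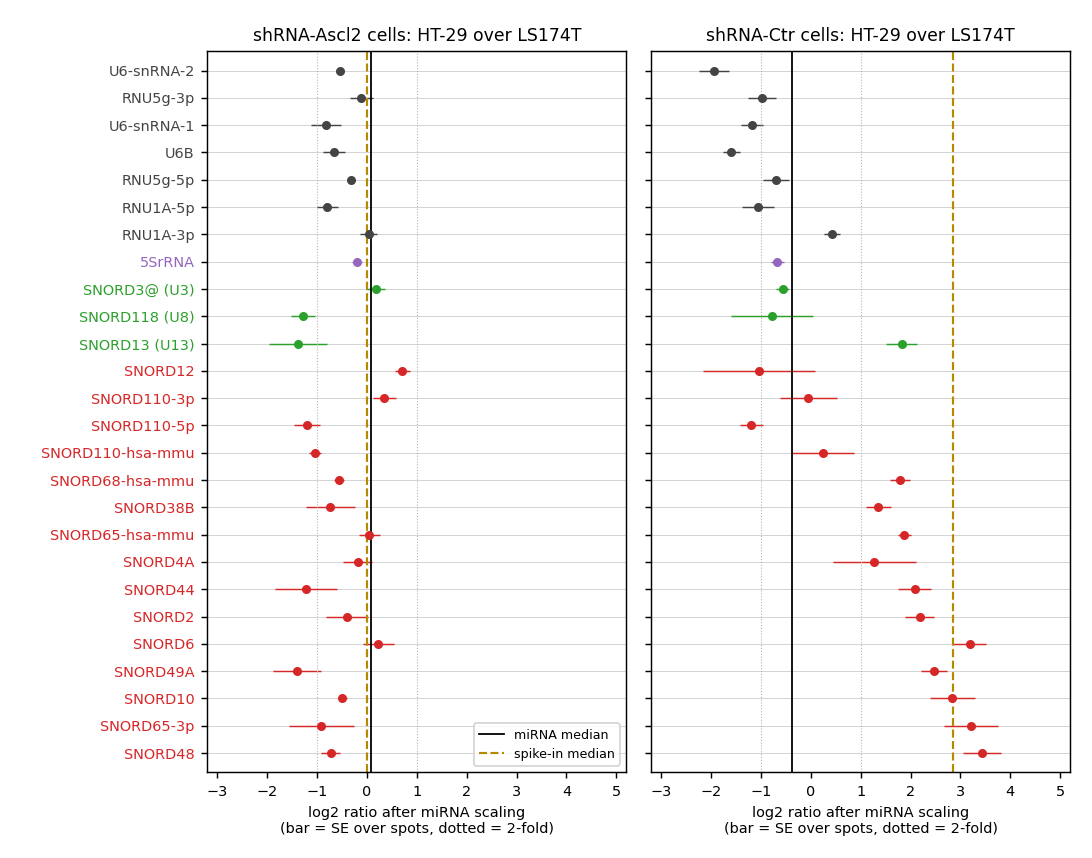
Log2 ratio of HT-29 over LS174T (miRNA scaling) for each small RNA probe in shRNA-Ascl2 cells (left) and shRNA-Ctr cells (right), with bars for the SE over spots. Solid and dashed lines are the medians of the miRNA probes and the spike-in controls. The wide split of the red snoRNA probes from the grey snRNA probes is seen on the right, the comparison that holds the shRNA-Ctr/LS174T array.

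A model with a term for the vector and a term for the line was fitted to all 4 arrays in limma, over the 739 miRNA and small RNA probes above 50 on at least 1 array, with 1 residual degree of freedom. For the vector, 0 of 26 small RNA probes passed an adjusted p of 0.05 and the lowest limma adjusted p was 0.98, with 0% of all probes called and 0 of 26 at an unadjusted p under 0.05. For the line, 0 of 26 passed as well, with a lowest limma adjusted p of 0.857 (0% of all probes called). At an unadjusted p under 0.05, 0 of the 26 and 32 of the 739 probes (4.33%) passed for the line. With 2 arrays per level, these values do not show that the RNAs were alike. The model also takes the effect of the vector as equal in both lines. A shift on the shRNA-Ctr/LS174T array alone thus counts partly as residual error, and the model cannot decide on it.

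Host genes and sequence were not used to choose the probes. By RefSeq coordinates, 16 of the 18 snoRNA species lie inside 15 genes, here called hosts, and U3 and U13 lie in none. Of the hosts, 11 are protein-coding and 4 are lncRNA genes. This is containment only, and whether each snoRNA, such as U8 in TMEM107, is cut from an intron was not examined. SNORD49A and SNORD65 share the lncRNA host SNHG29. SNORD44 lies in GAS5, SNORD48 in SNHG32 and SNORD12 in ZFAS1. Coding hosts include EIF4A1 (SNORD10) and EIF4A2 (SNORD2), both translation factors, RPL13 (SNORD68) and RPL23A (SNORD4A), which are ribosomal proteins, TAF1D (SNORD6) and NOP56 (SNORD110), a core protein of box C/D snoRNPs.

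Genes for the translation machinery often start with a pyrimidine tract. Of the 13 hosts with a start in the RefSeq promoter table (GRCh38.p14), 6 held CTTT within the first 10 bases of the transcript strand, where 4.48% of the 27305 starts in the table did. EIF4A1, EIF4G1, GAS5, NOP56, RPL13, SNHG29 and TMEM107 held none. Among these, EIF4A1 (SNORD10), GAS5 (SNORD44), NOP56 (SNORD110), RPL13 (SNORD68) and SNHG29 (SNORD49A and SNORD65) also hold snoRNAs with a probe called higher in LS174T. Only 1 start per gene was searched, and SNHG29 held CTTT within the 12 bases before its start. A host without a match may thus still have a pyrimidine tract. A match is a description of letters. The 4 matching hosts of snoRNAs called in LS174T are shown, SNORD12 being the probe whose lower call rests on 1 spot. Each is given as 30 bases of the transcript strand, 12 before the start and 18 from it, with CTTT in capitals.
EIF4A2 (SNORD2, called higher; chromosome 3): gggcgccgctgtCTTTtcagtcgggcgctg
TAF1D (SNORD6, called higher; chromosome 11): gaaatagccaaccCTTTtcttccgcacggt
SNHG32 (SNORD48, called higher; chromosome 6): gccattttagttCTTTttgcgaagtgggct
ZFAS1 (SNORD12, called lower; chromosome 20): aagccattcgttCTTTcgcgtctgcggtgc

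Annotated RNA length went with the LS174T ratio over the 26 probes, longer RNAs having lower log2 ratios (Spearman's rho -0.58). Over the 19 RNA species it was -0.52, and over the 15 snoRNA species alone -0.40. This is a description across probes of 1 pair of arrays, and length and class go together here.

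Some probes that the array named as miRNAs are tied to snoRNA genes in RefSeq, by an overlapping gene or by a synonym, so they were counted beside the snoRNA probes. There were 9 such probes, 7 of them above 50 on both LS174T arrays. Of the 9, 6 were called higher in shRNA-Ascl2/LS174T cells (27.6% of all probes tested) and 2 lower (26.8%). Of the 7, 5 were called higher and 1 lower. None of the 9 was called in HT-29, where 4.44% of all probes were higher and 8.27% lower. Mature sequences of 3 of them are shown because these miRNAs lie in H/ACA snoRNA genes, a class with no probe of its own here, and gave 3 different outcomes. They are from RefSeq (GRCh38.p14), with the seed (bases 2 to 8) in capitals, and no 2 share a seed.
miR-3651 (in SNORA84, chr9:92292461-92292484, minus strand): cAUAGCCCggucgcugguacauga
miR-664a-3p (in SNORA36B, chr1:220200549-220200571, minus strand): uAUUCAUUuauccccagccuaca
miR-1248 (in SNORA81, chr3:186786675-186786701, plus strand): aCCUUCUUguauaagcacugugcuaaa

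The miR-3651 probe had 2321.5 ± 206 in shRNA-Ascl2/HT-29 and 2992 ± 1106 in shRNA-Ctr/HT-29 cells, and 3474 ± 1051 in shRNA-Ascl2/LS174T and 188 ± 61.6 in shRNA-Ctr/LS174T cells. Its LS174T ratio of 17.98 was above that of every snoRNA probe. The miR-664 probe had 1854 ± 120 in shRNA-Ascl2/HT-29 and 1879.5 ± 400 in shRNA-Ctr/HT-29 cells, and 1358 ± 143 in shRNA-Ascl2/LS174T and 2767 ± 91.8 in shRNA-Ctr/LS174T cells, and was called lower at 0.477. The miR-1248 probe was at 1.04 and was not called. The miR-664* probe, tied to SNORA36B like miR-664, was called the other way, higher. It had 93.75 ± 17.3 in shRNA-Ascl2/LS174T and 26.5 ± 25.8 in shRNA-Ctr/LS174T cells. The miR-1291 probe (SNORA2C) was called lower, with 27.5 ± 3.70 in shRNA-Ascl2/LS174T and 60.5 ± 13.2 in shRNA-Ctr/LS174T cells. Both calls have a side below 50.

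RefSeq lists miR-3607 as a synonym of SNORD138 and miR-3647 as one of SNORD111B, both box C/D snoRNAs. The miR-3607-3p probe had 7842.5 ± 1508 in shRNA-Ascl2/HT-29 and 9349 ± 2507 in shRNA-Ctr/HT-29 cells, and 12596.5 ± 2321 in shRNA-Ascl2/LS174T and 709 ± 129 in shRNA-Ctr/LS174T cells, at a ratio of 17.3 in LS174T. The miR-3607-5p probe was at 6.02. The 2 probes of miR-3647 were at 4.54 and 2.32. All 4 probes were thus called higher in LS174T, on the side of SNORD48 and SNORD65-3p. The array groups them with the miRNAs. Of the 507 miRNA probes above 50 on both LS174T arrays, 127 were called higher, with ratios up to 32.7. The call alone thus does not set these 4 probes apart from miRNAs.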

How the data were processed

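The authors scanned 1 array per transfectant and deposited spot intensity on a linear scale, which was used. A second deposited table holds ratio values, a median per probe over its spots after division by a factor for each array, and served as an alternative. The authors' lists of changed miRNAs (4 columns of fold changes, 24 columns of values of single samples) were not used. The members and lists were chosen with earlier results of these data known.

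Spots were averaged per probe. Arrays were scaled on their median miRNA intensity (504 to 544 probes above 50 on both arrays), or on the median ratio of the spike-in controls. With 1 array per group there was no test within a line. For limma 3.58.1 (R 4.3.3), scaled values below 50 were raised to 50 before log2, and p-values were adjusted by Benjamini-Hochberg. Values are given for all U6, RNU, 5S, U3, U8, U13 and U14 probes, the 8 brightest, those called within a line and the extremes, and beyond this rule for the remaining measured probes, named after their values were seen. The calls and the model were tested on simulated data. Other scalings, background corrections, thresholds, floors and block ranges were tried. Names, hosts and lengths come from RefSeq (GRCh38.p14), with 1 gene for each of U1, U3, U5, U6 and 5S rRNA. The build of the probe design is not given in the sources used here.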

Additional observations from a re-analysis of the deposited data

Results flagged for a closer look

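On the miRNA scale, SNORD44 went past 2-fold in opposite directions in the 2 lines. Its ratio of shRNA-Ascl2 over shRNA-Ctr was 0.499903 in HT-29 and 4.66 in LS174T. The difference between the lines was not tested. On the spike-in scale both ratios were below 1, at 0.485 in HT-29 and 0.543 in LS174T, where it was not called. The HT-29 ratio lay at the threshold and differed by block range, at 0.585 (blocks 1 to 18) against 0.206 (blocks 19 to 36). The LS174T ratio was 4.45 and 4.87 over these ranges.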

How the results depend on the processing

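In HT-29 the count of called small RNAs (0 higher, 1 lower) became 0 with scaling on miRNA probes above 1000, with normexp background correction (offset 50) and at a 3-fold threshold. It became 4 at 1.5-fold (1 higher, 3 lower) and 4 after landmark correction (1 higher, 3 lower). Blocks 1 to 18 gave 1 higher and 0 lower, and blocks 19 to 36 gave 7 (2 higher, 5 lower). Shares of fold calls over all probes were taken for miRNA and spike-in scaling only. Counts at the other settings thus cannot be set against the whole array. Spike-in scaling divides every LS174T ratio by one factor, so that all probes shift alike. It gave 0 higher and 18 lower and a median log2 ratio of -2.15, against 0.95. By the same shift the class medians of -0.57 and 2.05 (snRNAs, 5S rRNA and U3, and other snoRNAs) became -3.68 and -1.06, an alternative chosen after the data were seen. SNORD probes alone had a median log2 ratio of 2.01 and a position of 0.677 in LS174T. Between lines in shRNA-Ascl2 cells, 0 were past 3-fold. In shRNA-Ctr cells, spike-in scaling gave 0 higher and 18 lower, and scaling on miRNA probes above 1000 gave 21 (10 higher, 11 lower), against 12 higher and 6 lower. The other 83 values recomputed (total counts, medians and the position) stayed within 1.5 times of the count or within the spread over spots. They include the limma counts, which were 0 at every setting. That spread is the SD of a single probe's log2 ratio (0.64 in HT-29, 0.49 in LS174T), a loose limit for a median over 26 probes. Within it, the HT-29 median log2 ratio was at -0.08 to 0.15, on both sides of 0. The LS174T median log2 ratio was at 0.59 to 1.23, and the position at 0.25 to 0.46. The splits of the counts moved, since the LS174T lower calls (1) were 0 with normexp, landmark correction and the authors' table. Where a value moved, the cause was not tested.

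No paired analysis was possible because each group had 1 array, so that the groups share fewer than 2 replicate numbers. Leaving 1 array out of the limma fit leaves no residual degrees of freedom, so the comparisons within a line or a vector stand for it. The 4 probes under 50 on every array could not be compared, and ratios with a dim side, such as that of SNORD12, rest on few spots.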
